A study of Mus musculus with 4 samples.

Results

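The variable (V) segments of the immunoglobulin kappa light chain locus were examined as a gene family. Every gene of the deposited tables whose mouse symbol starts with Igkv was taken, which gave 160 of 55573 gene identifiers, all on chromosome 6. Of these, 100 are annotated as functional V genes and 60 as pseudogenes, in 20 families named by the first number of the symbol, with 75 on the plus and 85 on the minus strand. RNA had been sequenced from bone marrow B cells of C57BL/6 mice aged 8 to 12 weeks, sorted in the gate named Fr.C+C', where Hardy's scheme places late pro-B cells and the first pre-B cells. There were 2 wild type libraries (WT 1, WT 2) and 2 libraries of the genotype labelled ADAR1 KO (KO 1, KO 2). ADAR1, encoded by Adar, edits adenosine to inosine in double-stranded RNA. The labels name no allele, no Cre driver and no litter, and nothing in them ties a library to a mouse. P-values therefore measure no more than how these libraries vary, possibly for technical reasons.

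A kappa light chain is made by joining 1 of many V segments to 1 of the 5 J segments upstream of the single constant region, Igkc. The RAG recombinase cuts the DNA at signal sequences beside the segments. A V segment in the same orientation as the J segments joins by deletion of the DNA between them, and one in the opposite orientation joins by inversion, which keeps that DNA on the chromosome. Most kappa joining takes place in small pre-B cells, after the heavy chain has been assembled, and antibody-secreting cells hold very large amounts of the joined transcript. Unjoined segments are also transcribed at a low level.

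The libraries had between 15094946 and 16401709 fragments assigned to genes. Values are FPKM, fragments scaled to exon length and to the library's total. For genes as short as V segments the FPKM steps give whole fragments, so the fragments behind each value could be read back. Markers of the gate were present in every library, with the surrogate light chain gene Vpreb1 at 213.23 and 180.25 FPKM in WT 1 and WT 2 and at 260.89 and 155.96 FPKM in KO 1 and KO 2, and 0 of the 10 gate genes at 0 in any library. They were not at equal levels, with sums of 2247 and 2264 against 1769 and 1176 FPKM. Both KO libraries were below both wild type libraries for 3 of 10 (31.7% of all genes tested) and above for 0 (19.7%). The 3 include Cd79a, at 436.24 and 435.96 against 193.59 and 96.8 FPKM. Adar itself was at 15.04 and 14.62 against 15.19 and 16.79 FPKM (log2 change 0.10 ± 0.14 SE, adjusted p = 0.721, limma). Summed over the gene, it would not reveal a partial deletion, and the label is therefore unchecked. Neutrophil marker genes were abundant, with a summed level over 10 genes of 27220 and 25390 FPKM in WT 1 and WT 2, 35500 FPKM in KO 1 and 72490 FPKM in KO 2. KO 2 stood apart from the other libraries in this sum, so results are given with and without it where it matters.

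The V segments have a common layout. Each of the 100 functional segments has a short leader exon and a V exon of 293 to 322 coding bases. The median identity of V exons was 88.1% over 532 pairs within a family and 63.6% over 4418 pairs between families. The germline V exons of 6 segments are shown 5′ to 3′, because the results below turn on these segments. Igkv1-117 had the highest wild type level and Igkv1-88 the highest level in the libraries labelled KO. Igkv10-96, Igkv10-94 and Igkv10-95 are the whole of family 10, and Igkv6-15 had the smallest p-value of the segments. Capitals mark the 26 bases from the last in-frame TGT or TGC codon to the end of the exon. That codon is the conserved cysteine before the third complementarity-determining region, and these are the bases that a J segment is joined to. The sequences are those of the GENCODE M21 transcripts, and for the pair of family 1 the last 298 of 313 bases are shown.
Igkv1-117: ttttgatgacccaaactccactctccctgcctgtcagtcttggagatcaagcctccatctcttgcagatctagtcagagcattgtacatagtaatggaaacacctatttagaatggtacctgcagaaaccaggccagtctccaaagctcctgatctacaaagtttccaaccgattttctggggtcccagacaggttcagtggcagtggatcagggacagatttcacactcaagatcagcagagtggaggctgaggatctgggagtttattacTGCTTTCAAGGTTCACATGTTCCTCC
Igkv1-88: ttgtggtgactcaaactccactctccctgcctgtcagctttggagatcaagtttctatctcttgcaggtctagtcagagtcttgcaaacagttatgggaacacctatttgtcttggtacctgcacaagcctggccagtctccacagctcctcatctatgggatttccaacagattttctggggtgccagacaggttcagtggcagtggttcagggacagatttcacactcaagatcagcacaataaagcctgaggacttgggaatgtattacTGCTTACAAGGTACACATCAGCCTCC
Igkv10-96: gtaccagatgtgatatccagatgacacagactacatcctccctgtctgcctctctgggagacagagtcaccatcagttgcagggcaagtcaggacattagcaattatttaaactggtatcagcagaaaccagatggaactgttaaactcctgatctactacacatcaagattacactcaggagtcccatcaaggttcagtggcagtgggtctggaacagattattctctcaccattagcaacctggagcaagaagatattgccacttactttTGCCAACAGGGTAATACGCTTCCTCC
Igkv10-94: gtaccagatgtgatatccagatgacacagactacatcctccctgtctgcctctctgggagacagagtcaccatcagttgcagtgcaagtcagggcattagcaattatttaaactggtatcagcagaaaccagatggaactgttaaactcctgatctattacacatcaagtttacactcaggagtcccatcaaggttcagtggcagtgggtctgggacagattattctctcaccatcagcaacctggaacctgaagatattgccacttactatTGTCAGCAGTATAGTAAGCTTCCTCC
Igkv10-95: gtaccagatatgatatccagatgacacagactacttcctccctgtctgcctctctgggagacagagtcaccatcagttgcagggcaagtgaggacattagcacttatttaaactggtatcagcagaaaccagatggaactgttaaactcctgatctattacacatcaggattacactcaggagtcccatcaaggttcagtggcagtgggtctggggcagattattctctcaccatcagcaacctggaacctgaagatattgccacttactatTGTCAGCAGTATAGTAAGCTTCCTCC
Igkv6-15: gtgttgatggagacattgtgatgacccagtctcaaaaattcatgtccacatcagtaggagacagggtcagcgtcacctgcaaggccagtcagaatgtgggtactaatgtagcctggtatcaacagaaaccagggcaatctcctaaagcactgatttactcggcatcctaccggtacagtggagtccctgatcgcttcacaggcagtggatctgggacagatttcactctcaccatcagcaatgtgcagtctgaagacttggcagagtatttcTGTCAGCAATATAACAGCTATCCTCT

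Igkv1-117 and Igkv1-88 were 84.3% identical over this exon. Igkv10-96 shared 94.6% with Igkv10-94 and 93.6% with Igkv10-95. Igkv10-94 and Igkv10-95 were 97.0% identical to each other, and their last 26 bases were the same. Such likeness bears on how reads are assigned. The closest relative was at least 95% identical for 46 of 100 functional segments, and 44 shared an unbroken run of 100 bases with another Igkv gene. Nothing states how the authors treated reads that match several genes, so the split of reads between close relatives is uncertain, while the family sums are less exposed to it.

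In the wild type libraries the V segments together were expressed at 1548 and 1515 FPKM, which rested on 9077 and 9241 fragments. The same sum was 141.8 FPKM in KO 1, from 819 fragments (exact 95% Poisson interval 764 to 877), and 47.4 FPKM in KO 2, from 262 fragments (231 to 296). Intervals on fragments here and below cover counting error only. Both libraries labelled KO thus lay far below both wild type libraries, and KO 2 lay below KO 1. The means were 1531 ± 23.5 and 94.58 ± 66.7 FPKM (SD, n = 2), so the level was 16.2-fold lower, 10.8-fold with KO 1 alone and 32.3-fold with KO 2 alone. An exact permutation test of 2 libraries against 2, two-sided, gave p = 0.333 (n = 2), the smallest value this design allows. In bulk RNA, fewer cells with a joined kappa gene and less kappa RNA per cell cannot be told apart.

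Each segment was then compared between the groups with limma on log2(FPKM + 1), fitted over the 13281 genes whose mean reached 1 FPKM in wild type or KO, with p-values adjusted by the Benjamini-Hochberg method and a threshold of 0.05. Log2 changes are given on that scale, KO minus WT, and understate the change of low genes. This filter kept 86 segments, 84 functional and 2 pseudogenes. Of the 74 left out, 40 were at 0 in all 4 libraries, 38 of them pseudogenes, and the other 34 reached 1.7 FPKM at most. Among the 86, 18 fell and 0 rose at the threshold, where 0.203% of all genes tested fell. Both libraries labelled KO were below both wild type libraries for 77 of the 86, for 31.7% of all genes, and the median log2 change was -2.79 against -0.09 over all genes. These counts are a description and not support, since 58 of the 86 had a mean under 1 FPKM in the libraries labelled KO and were tested only because of their wild type level. At an unadjusted p under 0.05 in limma, 74 were lower and 1 higher, against 6.02% and 6.45% of all genes. Leaving out single libraries changed the number past the threshold. With KO 2 left out it was 0 in limma (59 lower and 1 higher at an unadjusted p under 0.05, against 6.37% and 8.31% of all genes). With KO 1 left out it was 44, where 2.88% of all genes fell, and with WT 1 left out 9, where 0.105% did, although 84 of 88, 85 of 85 and 83 of 84 segments had a negative log2 change in these fits. Other settings gave 24 with a filter of 5 FPKM (0.397% of all genes fell), 8 with a pseudocount of 0.1 (0.113%), 37 with the replicate number as a block (0.459%), 64 with the numbers crossed (1.26%) and 4 with voom on estimated fragments (0.0678%), and 0 rose in each. With no filter on low values 0 of 120 passed in limma, with 74 lower and 1 higher at an unadjusted p under 0.05, against 3.97% and 4.5% of all genes.

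The segments that fell came from 11 families and from both strands. Igkv6-15 (ENSMUSG00000094797, chromosome 6, 70406469 to 70406992, minus strand) was at 66.56 and 60.91 FPKM in WT 1 and WT 2 and at 0.91 and 0.57 FPKM in KO 1 and KO 2. The libraries of a group were close to each other, and the level was 86.1-fold lower (95% counting interval 43.2 to 199), a log2 change of -5.22 ± 0.16 (SE, adjusted p = 0.00198, limma). Igkv1-117 (ENSMUSG00000094335, chromosome 6, 68121046 to 68121827, plus strand), the segment with the highest wild type level, was at 157.58 and 112.93 against 2.97 and 1.64 FPKM. This was a 58.7-fold lower level and a log2 change of -5.38 ± 0.27 (adjusted p = 0.00635, limma). Igkv10-96 (ENSMUSG00000094420, chromosome 6, 68631963 to 68632442, minus strand) had 90.43 and 85.01 against 2.29 and 0.74 FPKM, 57.9-fold lower (adjusted p = 0.0119, limma). All 3 were among the 10 segments with the highest mean over the 4 libraries and rested on 29 fragments or fewer in the libraries labelled KO.

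Other segments nearly vanished. Igkv5-39 was at 33.56 and 55.30 FPKM in wild type, and 1 fragment remained in KO 1 (0.18 FPKM) and 0 in KO 2, a ratio of 494 with a counting interval of 85.7 to 19000 (adjusted p = 0.00635, limma). Igkv2-137, the segment farthest from the J segments, was at 11.62 and 15.44 against 0.13 and 0 FPKM, again from 1 fragment in KO 1 (ratio 208, interval 37.4 to 8350, adjusted p = 0.00742). Igkv16-104, the only member of its family, had 10.71 and 16.44 FPKM in wild type, 0.33 in KO 1 and 0 in KO 2 (adjusted p = 0.0246). Igkv15-103 had 59.06 and 30.54 FPKM in wild type, 1.01 in KO 1 and 0.18 in KO 2 (adjusted p = 0.0342). For all 4 of these, KO 2 held 0 or 1 fragment. Igkv4-61, chosen after its values were seen, was at 3.31 and 15.79 FPKM in wild type and at 0 in both libraries labelled KO. With a floor of 3 fragments per library its level was at least 18.8-fold lower, but it did not pass (adjusted p = 0.293), and its wild type values were far apart.

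The other segments that fell follow. Igkv1-110 had 62.49 and 37.22 FPKM in wild type and 3.62 and 2.31 FPKM in KO 1 and KO 2 (adjusted p = 0.0342, limma), and its V exon is 96.8% identical to that of Igkv1-117. Igkv14-126 had 37.47 and 36.07 FPKM in wild type and 1.06 and 0.74 FPKM in KO 1 and KO 2 (adjusted p = 0.00293), and Igkv14-100 went from 4.84 and 6.04 to 0 and 0.19 FPKM (adjusted p = 0.0342). Igkv9-123 had the smallest change of the 18, from 5.04 and 5.33 to 0.67 and 0.70 FPKM, 7.57-fold (adjusted p = 0.0443). The groups did not overlap for any of these segments. In family 4 the called segments were Igkv4-53, Igkv4-68 and Igkv4-72, in family 5 also Igkv5-48, in family 8 Igkv8-19 and Igkv8-27, and in family 10 also Igkv10-94, with log2 changes between -3.83 and -2.86.

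**Figure D1:**
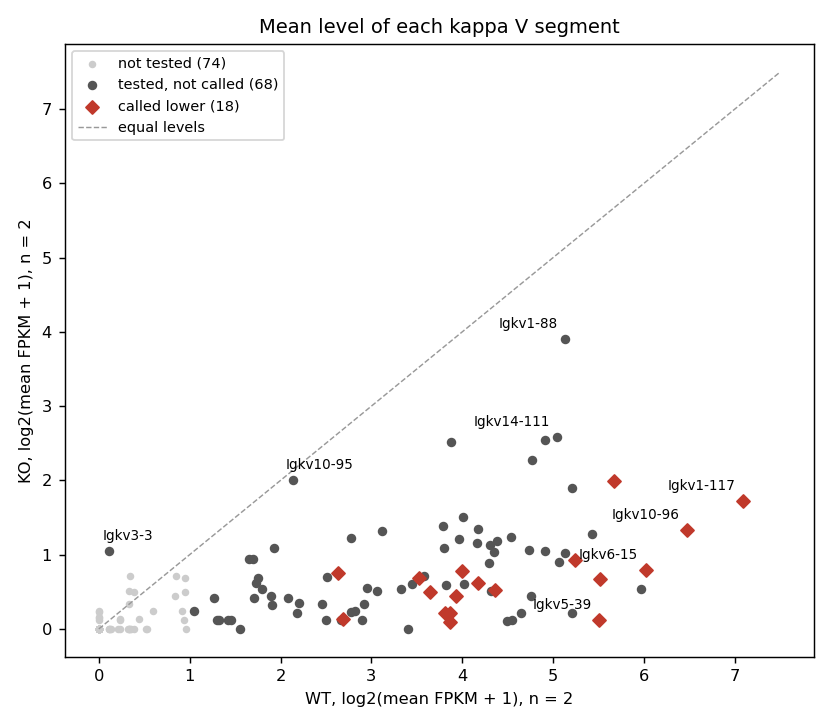
Mean level of each of the 160 kappa V segments in the libraries labelled KO (y axis) against wild type (x axis), both as log2(mean FPKM + 1) over 2 libraries; the dashed line marks equal levels. The 18 segments called lower lie far under the line, Igkv1-88 has the highest level in the libraries labelled KO, Igkv10-95 lies near the line, and Igkv3-3 lies above it.

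The segments with the highest levels in the libraries labelled KO, or with the smallest changes, follow. Igkv1-88 (ENSMUSG00000076535, chromosome 6, 68862265 to 68863031, minus strand) was at 39.33 and 28.61 FPKM in wild type and at 18.31 and 9.68 FPKM in KO 1 and KO 2, from 105 and 53 fragments. Both values lay below both wild type values, and the level was 2.43-fold lower (counting interval 1.99 to 2.91), but the log2 change of -1.27 ± 0.33 did not pass (adjusted p = 0.345, limma). It was the highest segment in both libraries labelled KO. Igkv10-95 (ENSMUSG00000094902, chromosome 6, 68680379 to 68680848, plus strand) was at 3.47 and 3.34 against 4.73 and 1.33 FPKM, so that the wild type values lay between those of KO 1 and KO 2. Its log2 change was -0.27 with a 95% interval of -1.38 to 0.84 (adjusted p = 0.763). Igkv10-94, which shares its last 26 bases and lies on the other strand, 2018 kb from Igkj1 against 2042 kb, went from 14.04 and 14.57 to 0.73 and 0 FPKM (adjusted p = 0.0342). The difference between these changes was not tested.

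Igkv3-3, a segment 35.03 kb from the J segments, was the only tested one with a higher mean in the libraries labelled KO. It was tested only because of its level there, with a mean of 1.075 FPKM against 0.085 FPKM in wild type. Its direction is therefore a description and not support. It was at 0 and 0.17 FPKM in wild type and at 1.23 and 0.92 FPKM in KO 1 and KO 2, which is 0 and 1 against 7 and 5 fragments. The groups did not overlap, as for 19.7% of all genes in this direction, and the log2 change of 0.94 ± 0.25 did not pass (adjusted p = 0.345, limma). Its neighbours went the other way. Igkv3-2, 23.50 kb from the J segments, was at 25.95 and 13.70 against 1.84 and 0.70 FPKM, which did not pass (adjusted p = 0.0946, limma). Igkv3-1, the nearest of all at 18.39 kb, had 2.47 and 6.96 FPKM in wild type and 0.88 and 0.37 FPKM in KO 1 and KO 2 (adjusted p = 0.343). Igkv18-36, the only member of its family, was too low to be tested, at 0 and 0.53 against 1.10 and 0.19 FPKM, and the groups overlapped.

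Summed by family, 17 of 20 families were lower in both libraries labelled KO than in both wild type libraries (31.7% of all genes taken singly), but by different amounts. Some of the 17 rest on little, such as family 11, with 10 and 7 fragments in wild type and 2 and 1 in KO 1 and KO 2. Family 5, which has 6 genes, all on the minus strand, lay furthest below wild type among the families with over 20 FPKM there. Its sum was 98.32 and 121.4 FPKM in WT 1 and WT 2 and 1.72 and 0.74 FPKM in KO 1 and KO 2, 89.3-fold lower (counting interval 52.6 to 162). Family 15, in which Igkv15-103 is the only functional gene, was 75.3-fold lower (35.6 to 185). Family 4, the largest with 33 genes and also all on the minus strand, was at 239.8 and 258.6 against 13.12 and 3.64 FPKM, 29.7-fold lower (24.2 to 36.7). These 3 families therefore lay further below wild type than the 16.2-fold of the whole sum.

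Other families lay less far below wild type. Family 1, which holds Igkv1-117 and Igkv1-88, was at 297.2 and 226.8 against 32.27 and 14.48 FPKM, 11.2-fold lower (10.3 to 13.3). Most of what remained was Igkv1-88, with 18.31 and 9.68 FPKM in KO 1 and KO 2 against 39.33 and 28.61 FPKM in wild type. The fold of family 1 is therefore not a trait of all its members, and the family without Igkv1-88 was not summed. Family 14 was 9.92-fold lower (7.93 to 12.4) and family 9 7.77-fold lower (6.00 to 9.98). Family 19, whose single gene is Igkv19-93, was at 20.75 and 37.25 against 7.65 and 2.0 FPKM, 6.01-fold lower (4.47 to 8.07). The order differed between the libraries labelled KO. Family 5 was 63.9-fold lower in KO 1 and 148-fold lower in KO 2, while family 15 was 44.4-fold and 249-fold lower. Family 19 was 3.79-fold lower in KO 1 and 14.5-fold lower in KO 2, where family 9 was 11.7-fold and family 14 13.6-fold lower. The families in between were close, with family 6 at 21.9-fold, family 10 at 21.5-fold, family 8 at 23-fold and family 17 at 20.1-fold, and their counting intervals overlapped. With 2 libraries a group, differences between families were not tested.

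**Figure D2:**
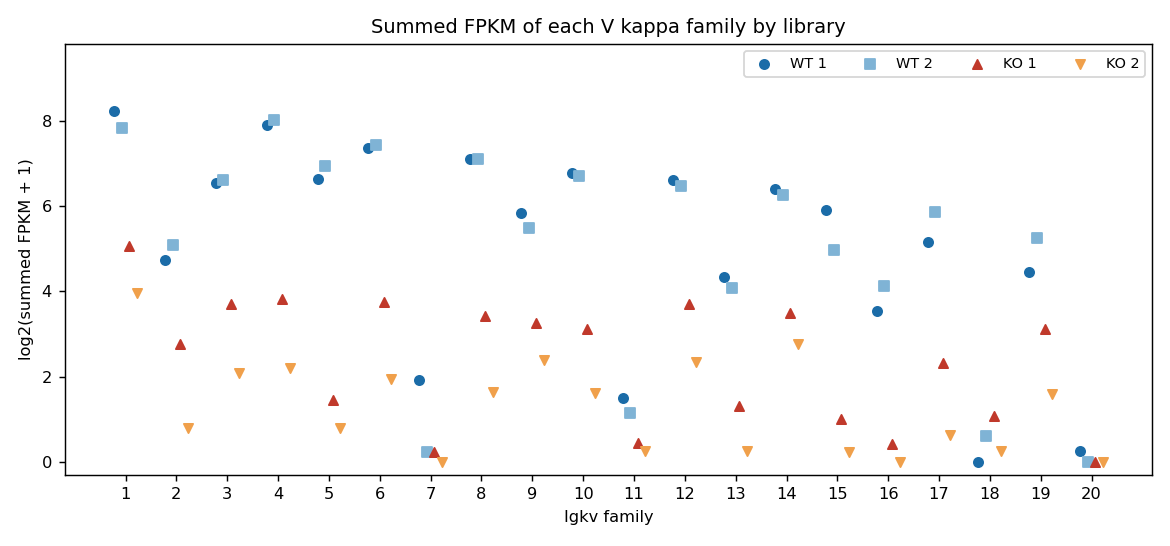
Summed FPKM of each V kappa family, as log2(sum + 1), in WT 1, WT 2, KO 1 and KO 2 (1 point per library). In 17 of 20 families both libraries labelled KO lie below both wild type libraries, as for 31.7% of all genes taken singly. Families 7, 18 and 20, each with 1 gene, are the exceptions.

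The makeup of the remaining kappa V RNA differed from that of wild type. Igkv1-88 made up 2.54% and 1.89% of the summed Igkv FPKM in WT 1 and WT 2, and 12.9% and 20.4% in KO 1 and KO 2. Igkv10-95 made up 0.224% and 0.220% in wild type and 3.34% and 2.81% in KO 1 and KO 2. Igkv14-111 (chromosome 6, 68256389 to 68256869, plus strand) went from 2.49% and 1.67% to 4.11% and 8.71%, and Igkv12-89 (68834846 to 68835307, minus strand) from 1.28% and 0.5% to 4.61% and 6.18%. The last 2 were chosen after their values were seen. Igkv9-124 and Igkv19-93 also had larger shares in both libraries labelled KO. Igkv1-117, the leading segment of both wild type libraries at 10.2% and 7.46%, made up 2.10% and 3.46%. In all, 22 members had a larger share in both libraries labelled KO than in both wild type libraries. Of these, 11 were at lower FPKM in both than in both wild type libraries, 10 had overlapping FPKM, among them Igkv10-95, and 1, Igkv3-3, was at higher FPKM. The 22 include segments on very few fragments, such as Igkv4-78, with 1 and 5 in wild type and 1 and 1 in KO 1 and KO 2. In KO 2, 3 fragments make 1.15% of the kappa V fragments, against 0.0331% and 0.0325% in wild type. The count is therefore a description and not support, and members with a smaller share were not counted.

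**Figure D3:**
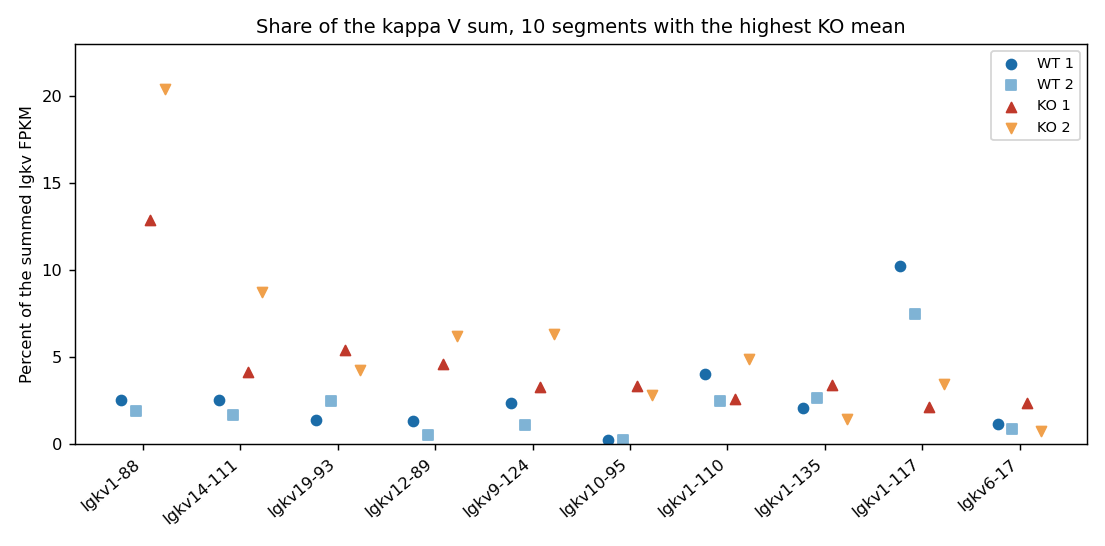
Percent of the summed Igkv FPKM held by each of the 10 segments with the highest mean in the libraries labelled KO, 1 point per library. Igkv1-88 stands at 12.9% and 20.4% in KO 1 and KO 2 against 2.54% and 1.89% in wild type, and Igkv1-117 is higher in wild type.

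Other segments with high levels were lower in both libraries labelled KO but did not pass. Igkv8-21 was at 57.15 and 27.11 FPKM in wild type, 2.31 in KO 1 and 0.52 in KO 2 (adjusted p = 0.0935, limma). Igkv17-127 had 23.44 and 34.78 FPKM in wild type, 1.76 in KO 1 and 0.37 in KO 2 (adjusted p = 0.0577). Igkv12-46, Igkv13-85 and Igkv2-109 were 23.3-fold, 17.1-fold and 7.93-fold lower (adjusted p = 0.0701, 0.0939 and 0.280). Igkv1-135, among the 10 highest segments and 3112 kb from Igkj1, was at 31.48 and 40.2 FPKM in wild type, 4.81 in KO 1 and 0.67 in KO 2 (adjusted p = 0.204). Low segments gave less. Igkv9-129 had 1.08 and 1.04 FPKM in wild type, 0.36 in KO 1 and 0 in KO 2 (adjusted p = 0.370). Igkv7-33 (adjusted p = 0.505) had overlapping groups. Igkv11-125 and Igkv20-101-2 were too low to be tested, and the pseudogene Igkv1-136, 3128 kb from Igkj1, was at 0 in all 4 libraries.

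Some of the segments with larger shares lie near one another, and others lie elsewhere, such as Igkv14-111 at 2466 kb, Igkv9-124 at 2780 kb and Igkv3-3 at 35.03 kb from Igkj1. Igkv10-95, Igkv19-93, Igkv12-89 and Igkv1-88 start between 68680379 and 68862265 on chromosome 6, a stretch 1860 to 2042 kb from Igkj1 that holds other segments too. The stretch was drawn around these segments after their values were seen. Igkv10-94 lies within this stretch and fell. Igkv4-91, at 8.66 and 4.42 against 0.35 and 0.18 FPKM, lies within it as well. So does Igkv4-90, at 2.16 and 2.77 against 0.90 and 0 FPKM. Both were below both wild type libraries and did not pass (adjusted p = 0.101 and 0.345, limma). Igkv4-92, at 3.97 and 0.52 against 0.90 and 0.94 FPKM, lies there too, with overlapping groups. No difference between members of this stretch was tested.

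Pseudogenes held a larger part of the remaining signal, on few fragments: 40 in KO 1 and 10 in KO 2, against 49 and 55 in wild type. The 60 pseudogenes were at 9.12 and 9.76 FPKM in wild type, 0.589% and 0.644% of the kappa V sum, and at 7.39 and 1.92 FPKM in KO 1 and KO 2, 5.21% and 4.05% of it. Their summed level was 2.03-fold lower (counting interval 1.41 to 2.86), 1.28-fold with KO 1 alone and 4.92-fold with KO 2 alone, against 16.9-fold (15.9 to 18.1) for the 100 functional segments. Per fragment, the pseudogene share had exact 95% binomial intervals of 0.400% to 0.713% and 0.449% to 0.774% in wild type, and 3.51% to 6.59% and 1.85% to 6.91% in KO 1 and KO 2. The intervals of the groups did not overlap, and the exact permutation test over libraries gave p = 0.333 (two-sided, n = 2), its smallest value. The 2 pseudogenes tested were Igkv14-118-2, at 1.31 and 4.31 against 1.86 and 0.39 FPKM, and Igkv14-126-1, at 1.65 and 2.64 against 1.46 and 0.38 FPKM. Neither passed (adjusted p = 0.524 and 0.442, limma), and Igkv14-118-2 had overlapping groups. In KO 1 and KO 2, Igkv14-118-2 held 10 and 2 of the pseudogene fragments and Igkv14-126-1 held 8 and 2. Much of the pseudogene share there thus rests on these genes.

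The number of segments detected was compared at equal depth, since a library with fewer fragments shows fewer segments. Between 105 and 108 members were above 0 in wild type, 99 in KO 1 and 59 in KO 2. Reduced to the 262 fragments of KO 2, the expected number was 61.3 and 64.5 in wild type and 74.1 in KO 1, against 59 in KO 2. The effective number of segments, which is the number of equally used segments with the same chance that 2 fragments match, was 29.7 and 39.3 in wild type, 30.7 in KO 1 and 15.7 in KO 2. The 10 highest segments held 45.3% and 37.4% of the sum in wild type, 44.1% in KO 1 and 61.2% in KO 2. The share of the 10 highest was not brought to equal depth, and few fragments push it toward concentration. The effective number is corrected for the number of fragments. In both measures KO 1 lay between WT 1 and WT 2 and only KO 2 stood apart, so no difference between the groups is read from them. In KO 2 a single member needs 3 fragments, 1.15% of the kappa V fragments, to stand clear of 0.

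Strand made little difference. Plus-strand segments, which join by deletion, held 41.2% and 38.9% of the kappa V sum in wild type and 42.5% and 39.7% in KO 1 and KO 2, so the groups overlapped (exact permutation p = 0.667, two-sided, n = 2). The plus-strand sum was 15.5-fold lower (counting interval 14.4 to 17.4) and the minus-strand sum, of segments that join by inversion, was 16.7-fold lower (15.3 to 18). Of the segments tested, 7 of 34 on the plus strand and 11 of 52 on the minus strand fell. With 2 libraries a group, no test of the strand could pass. With the leading segment of each library left out, the plus-strand share was 15.1 percentage points higher in the libraries labelled KO than in wild type, because this removes Igkv1-117, a plus-strand segment, from wild type and Igkv1-88, a minus-strand segment, from the others.

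Over single tested segments, the log2 change was not ordered by position along the locus. The segments lie between 18.39 kb (Igkv3-1) and 3166 kb (Igkv2-137) from Igkj1. Over the 86 tested segments the log2 change had a Pearson correlation of 0.04 with the distance from Igkj1 (Spearman 0.06), a description over segments that share libraries. The correlation with the wild type level was -0.89, but the pseudocount ties a larger log2 change to a higher starting level. The correlation with distance is therefore a weak guide to position. By window, segments within 1000 kb of Igkj1 were at 568.8 and 601.1 against 43.39 and 10.52 FPKM, 21.7-fold lower (counting interval 19.0 to 23.9), 13.5-fold with KO 1 alone and 55.6-fold with KO 2 alone. Those at 1000 to 2000 kb, where Igkv1-88 lies, were 10.5-fold lower (9.48 to 11.8), 7.29-fold and 18.6-fold with KO 1 and KO 2 alone. Those beyond 2000 kb were 17.3-fold lower (16 to 19.6), 11.8-fold and 32.7-fold with KO 1 and KO 2 alone. The nearest window held 36.7% and 39.7% of the sum in wild type and a smaller share, 30.6% and 22.2%, in KO 1 and KO 2. The farthest held 41.4% and 37.3% against 36.2% and 38.9%, with overlapping groups. Differences between windows were not tested. The middle window held 21.9% and 23% of the sum in wild type and 33.2% and 38.9% in KO 1 and KO 2. Within it, Igkv1-88 alone held 2.54% and 1.89% of the sum in wild type and 12.9% and 20.4% in KO 1 and KO 2. The middle window without this segment was not summed, so the larger share and smaller fold of that window are not read as an effect of position.

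**Figure D4:**
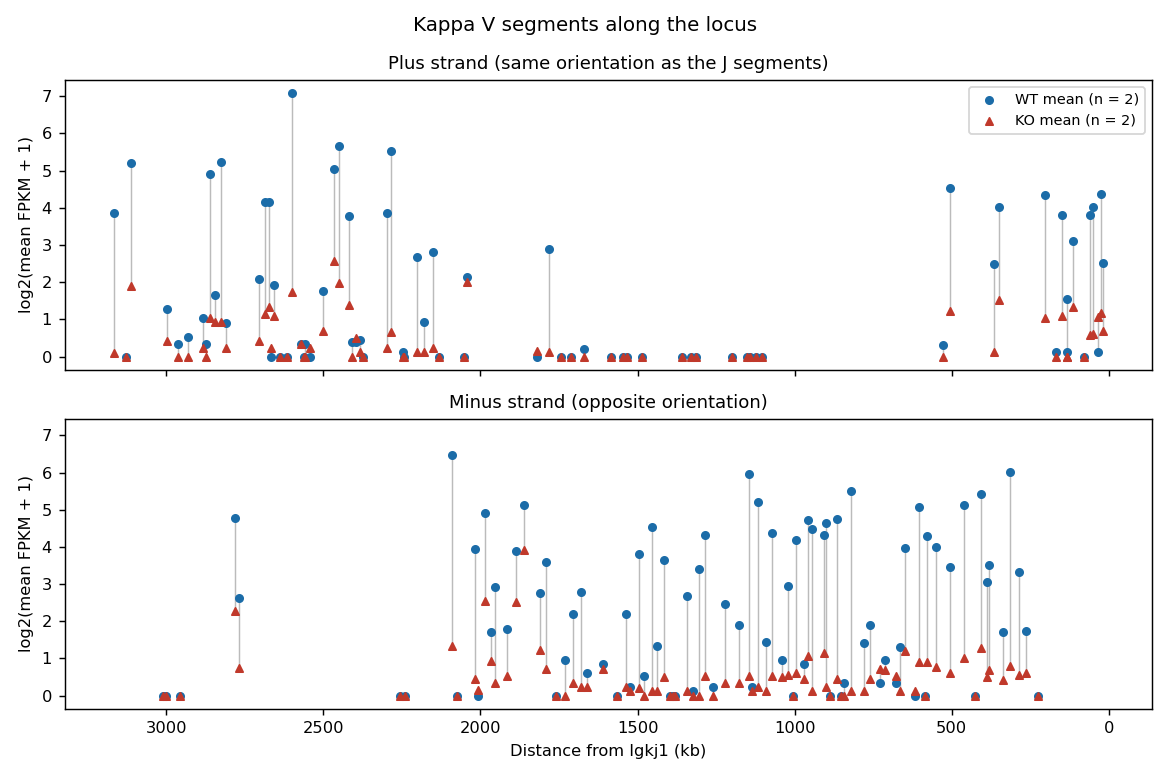
Mean level of each kappa V segment, as log2(mean FPKM + 1) over 2 libraries a group, against its distance from Igkj1, with plus-strand segments above and minus-strand segments below; grey lines join the groups of a segment. Tested segments lie between 18.39 and 3166 kb on the plus strand, with only 1 between 1000 and 2000 kb, and between 264.5 and 2780 kb on the minus strand. Igkv1-88, at 1860 kb on the minus strand, keeps the highest level in the libraries labelled KO.

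The wild type libraries had almost the same kappa V sum and still differed in which segments made it up. The values of WT 1 and WT 2 were more than 1 log2 unit apart, on the log2(FPKM + 1) scale, for 31 of the 86 tested segments, where 1.75% of all genes were. KO 1 and KO 2 were this far apart for 20 of the 86, where 4.69% of all genes were. In families 4 and 5, 12 of 21 and 3 of 5 tested segments were this far apart between the wild type libraries, as was Igkv7-33, the only gene of family 7, at 2.77 and 0.17 FPKM. Family 1 had 0 of 6 and family 10 had 0 of 3. Igkv4-70 was at 1.67 FPKM in WT 1 and 43.07 FPKM in WT 2, Igkv5-45 at 2.79 and 40.19 FPKM, and Igkv4-57, the highest of family 4, at 89.53 and 33.40 FPKM. These segments were at 0.17 and 0, 0.16 and 0, and 0.90 and 0 FPKM in KO 1 and KO 2. Igkv4-57 did not pass (adjusted p = 0.0660, limma), nor did Igkv4-70 and Igkv5-45 (0.396 and 0.370), the last 2 chosen after their values were seen. None of the 18 called segments had wild type values more than 1 log2 unit apart, but the test itself favours segments whose libraries lie close, so this is not support. Igkv5-45 is 99.0% identical to Igkv5-43, which was at 38.40 and 9.8 FPKM, the opposite order, and was also chosen after its values were seen. The split of reads between them is uncertain.

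**Figure D5:**
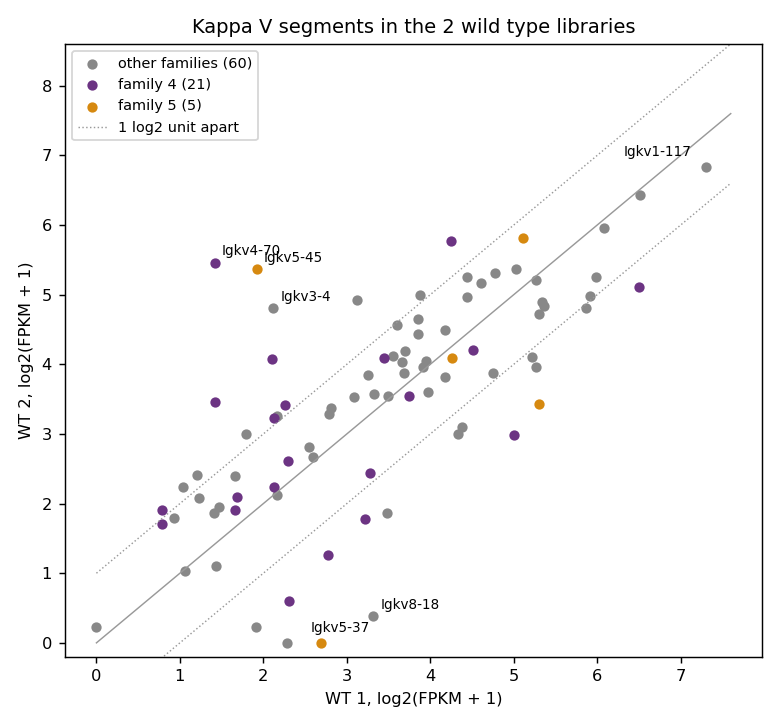
Level of the 86 tested kappa V segments in WT 2 (y axis) against WT 1 (x axis), as log2(FPKM + 1), with equal levels as a solid line and 1 log2 unit apart as dotted lines. Outside the dotted lines lie 31 segments, 12 of them of family 4 and 3 of family 5, with Igkv4-70 and Igkv5-45 far above the upper line.

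The constant and joining segments of the same locus were lower by less. Igkc (ENSMUSG00000076609, chromosome 6, 70726435 to 70726966, plus strand) stood at 1727.77 and 1697.43 FPKM in wild type and at 312.56 and 111.12 FPKM in KO 1 and KO 2, 8.08-fold lower, and did not pass (log2 change -3.19 ± 0.50, adjusted p = 0.187, limma). It passed without KO 1 (adjusted p = 0.0426), with B-lineage scaling (3.38e-07) and with the crossed replicate block (0.0105), and its adjusted p over all alternatives ran from 3.38e-07 to 0.546. The kappa V sum per unit of Igkc was 0.896 and 0.892 in WT 1 and WT 2 and 0.454 and 0.427 in KO 1 and KO 2. It was nearly equal within each group and lower in the libraries labelled KO. The 5 J segments, which lie between the V segments and Igkc, were 1.34-fold to 2.32-fold lower, and none passed with all 4 libraries. Without KO 1, Igkj1, Igkj3 and Igkj5 passed (adjusted p = 0.0426, 0.0426 and 0.0475, limma). Igkj1 was at 93.26 and 96.18 FPKM in wild type, 107.98 in KO 1 and 33.06 in KO 2 (adjusted p = 0.589, limma). Igkj5 was at 233.54 and 314.72 FPKM in wild type, 169.85 in KO 1 and 66.12 in KO 2 (adjusted p = 0.378). Both rest on few fragments, since a J segment is only 38 to 43 bases long. For Igkj1 and Igkj4 the groups overlapped. For Igkj1, without KO 2 the log2 change was 0.19 in place of -0.65.

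Genes that act on kappa joining and kappa transcription were examined as a list of 44. Of 43 tested, 0 fell and 0 rose in limma, 34 had a negative log2 change (61.7% of all genes did), 19 had KO 1 and KO 2 below WT 1 and WT 2 (31.7% of all genes did), 5 had them above (19.7%) and the median was -0.34. The recombinase genes Rag1 and Rag2 did not pass. Rag1 stood at 49.79 and 54.84 FPKM in wild type, 68.02 in KO 1 and 35.27 in KO 2, and Rag2 at 16.28, 16.94, 16.94 and 9.44 FPKM in the same order. Irf4, a factor that binds the kappa enhancers, was at 79.29 and 112.38 against 76.56 and 29.04 FPKM, and Pou2af1, a coactivator at octamer sites of V promoters, at 274.13 and 305.47 against 235.21 and 102.16 FPKM. The 4 genes just given were picked with their values known, and KO 2 lay below both wild type libraries in each. The 4 genes with the smallest p were Pou2f2, Spi1, Ikzf3 and Mef2c. Pou2f2, an octamer-binding factor, was at 7.98 and 7.91 FPKM in wild type, 4.81 in KO 1 and 4.01 in KO 2 (adjusted p = 0.293, limma). Spi1, which encodes PU.1, went the other way, at 56.12 and 48.98 FPKM in wild type, 72.59 in KO 1 and 109.53 in KO 2 (adjusted p = 0.370). Ikzf3 and Mef2c were below both wild type libraries in KO 1 and KO 2 and did not pass (adjusted p = 0.409 and 0.416).

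Marker lists of other cells were read beside the kappa V segments. In a list of 12 plasma cell genes, Jchain, which joins secreted antibody units, fell from 105.85 and 91.45 to 0.25 and 0.45 FPKM (adjusted p = 0.00135, limma). Tnfrsf17, a survival receptor of plasma cells, was at 2.17 and 1.79 FPKM in wild type and at 0 in both libraries labelled KO (adjusted p = 0.129). The summed level of the list was 447.3 and 449.9 FPKM in wild type and 354.7 and 384.6 FPKM in KO 1 and KO 2, and 7 of 10 tested members were below both wild type libraries (31.7% of all genes). The other tested members did not pass, and Prdm1 and Fkbp11 were too low to be tested. Xbp1, a factor of the secretory program, was above both wild type libraries at 45.61 and 39.29 against 47.08 and 55.4 FPKM, as was Ly6c2 at 84.05 and 71.63 against 104.16 and 228.06 FPKM. In a list of 10 mature B cell genes 8 of 9 tested were below both wild type libraries, 1 of them, Fcer2a, past the threshold, and the sums were 176.1 and 194.2 against 127.0 and 112.1 FPKM. The neutrophil sum was highest in KO 2, as given above, with 9 of 10 genes above both wild type libraries in both libraries labelled KO, where 19.7% of all genes were, and with 0 of 10 past the threshold. The part of these cells in the kappa V results was not tested. Scaled to the summed level of 34 B-lineage identity genes, which was 4216 and 4429 FPKM in wild type and 3615 and 2164 FPKM in KO 1 and KO 2, the kappa V sum was 11.6-fold lower in place of 16.2-fold. With the log2 values centred on that list, 58 of the 86 segments fell, where 0.821% of all genes did, and over all genes 109 fell and 440 rose in place of 27 and 0, while the median of all genes moved from -0.09 to 0.45 and that of the segments from -2.79 to -2.25.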

How the data were processed

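RNA from sorted Fr.C+C' B cells was sequenced in 2 libraries per genotype (wild type and ADAR1 KO), from 1 µg of RNA with a RIN above 6.5, per the labels. The authors deposited FPKM values rounded to 2 decimals, per the file headers, without pooling libraries. The submitters' processing notes name the mm9 build. For the aligner, counting program, strand setting and multiply mapped reads, the sources used here give nothing. Symbols for 55394 of 55573 identifiers, coordinates (1-based GRCm38), strand and sequences come from GENCODE M21, matched by gene identifier, so no coordinates of the files were used. Promoters and recombination signals were not analysed here.

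Fragments were read back from FPKM times union exon length. Of low values, 99.5% to 99.6% were whole multiples within 0.15 fragments. Tests used limma 3.58.1 (R 4.3.3) with a mean-variance trend, no covariate and a pseudocount of 1. The fit was checked on simulated data in which all genes had the same dispersion. That check does not cover segments that vary between libraries as much as these. Identity came from global alignment (Biopython 1.88). Members, lists and the naming rule were chosen with earlier results of these data known. Named were all called segments, the 10 highest, the 5 largest and 5 smallest changes, the top segment of each family, the 3 nearest and 3 farthest, the top pseudogene and any tested segment higher in KO. Of the genes outside the family, Igkc, the J segments, Adar and some list members are named. Same-numbered libraries did not deviate together (r = -0.149 across 13281 genes), and nothing in the labels pairs them. T cell (median log2 change -0.13 over 7 tested) and erythroid lists (-0.90 over 6) had 0 genes past the threshold. Alternatives are given in the closing section.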

Additional observations from a re-analysis of the deposited data

How the results depend on the processing

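The number of calls changed with the processing more than the direction, which turned for the few named at the end. The log2 change was negative for 85 of 86 tested segments, against 61.7% of all genes tested. Most of these segments were tested only because of their wild type level, so the count of directions is a description and not support. Of the 86 kappa V segments, 18 were called (27 of all genes). The counts for segments and for all genes were 8 and 15 with a pseudocount of 0.1, 0 and 0 with no filter in limma (74 of 120 segments lower and 1 higher at an unadjusted p under 0.05, against 3.97% and 4.5% of all genes), 58 and 549 with B-lineage scaling, 4 and 9 with voom on estimated fragments, and 37 and 68 with the replicate block. Leaving out 1 library gave 0 (without KO 2) to 44 (without KO 1) segments and 0 to 948 genes. Without KO 1, 385 of those 948 genes fell and 563 rose. Where a library is left out, the lone one is assumed to vary like the pair. The crossed replicate block, chosen after seeing the data, gave 64 and 213. The stricter filter, quantile normalization and median centring stayed within 1.5 times. All calls of segments in these fits were lower. No segment was called in every fit, and Igkv6-15, Igkv14-126 and Igkv1-117 were called in 12 of 14, counting the fit reported. The summed level was 10.8-fold to 32.3-fold lower without 1 library. The plus-strand share, 1.04 percentage points higher in KO with all segments, moved to 15.1 points without the leading segment of each library. Signs turned for Igkv10-95 with B-lineage scaling (0.27) and without KO 2 (0.38, against -0.919 without KO 1), for Igkv4-92 with B-lineage scaling (0.0256) and for Igkj1 without KO 2 (0.187, against -1.49 without KO 1), none of the turned values past the threshold, and the cause was not tested. Depth limits single segments in KO 2, where 41 of 59 detected members rest on 3 fragments or fewer.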
